A study of Mus musculus with 4 samples.

Results

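Chromatin accessibility at 7 leukocyte genes was examined in subcutaneous white fat: Ighd, Fcer2a and Cr2 of B cells, Csf3r and Lcn2 of neutrophils, the tetraspanin gene Cd9, and Kit, the receptor gene of mast cells. They were taken by name from the table of genes, 7 of 11993 genes, and were linked there to 9 of the 12477 regions merged over the libraries. The series holds 2 male and 2 female libraries of ATAC-seq, in which Tn5 transposase cuts and tags open DNA, made from the subcutaneous white fat pad of wild-type (WT) mice, frozen and then ground. The labels give neither strain nor age. They also do not say that libraries of one sex stem from different mice. The p-values therefore measure only the spread between these libraries, which may be technical. That spread was pooled over genes of like height, so a p-value does not reflect the own spread of its gene. Positions are in mm10, counted from 1.

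Fat pads hold resident macrophages, lymphocytes, neutrophils and mast cells between the adipocytes, and in mice the inguinal subcutaneous pad also contains a lymph node; which subcutaneous pad was used is not given in the labels. Each of these cell types opens its own promoters and enhancers, while promoters of genes that all cells use are open in most cells. In ATAC-seq of a whole tissue, fewer cells of a type and less open DNA per cell cannot be told apart.

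None of the 7 genes had a peak at its own start. The nearest summit, the highest point of a called peak, lay within 1000 bp of the own start in 0 of 7 leukocyte genes, against 69.7% of all genes in the table. Only Cd9 and Kit were linked to regions inside the gene. Of the 9 regions, 6 lay nearer to the start of another gene, and 4 of these were at that start: of Trappc5 for Fcer2a, of Cr1l for Cr2, of Mrps15 for Csf3r and of 1110008P14Rik for Lcn2. For 5 of the 7 genes a region was shared with another gene (67.1% of all genes), and in these 5 every region was (59.2% of all genes). Fcer2a, Ighd, Cr2 and Lcn2 had exactly the same regions as another gene, as 39.5% of all genes did. A shared region gives its height to each gene linked to it, so the value listed for Lcn2 is also the value listed for 1110008P14Rik.

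**Figure D1:**
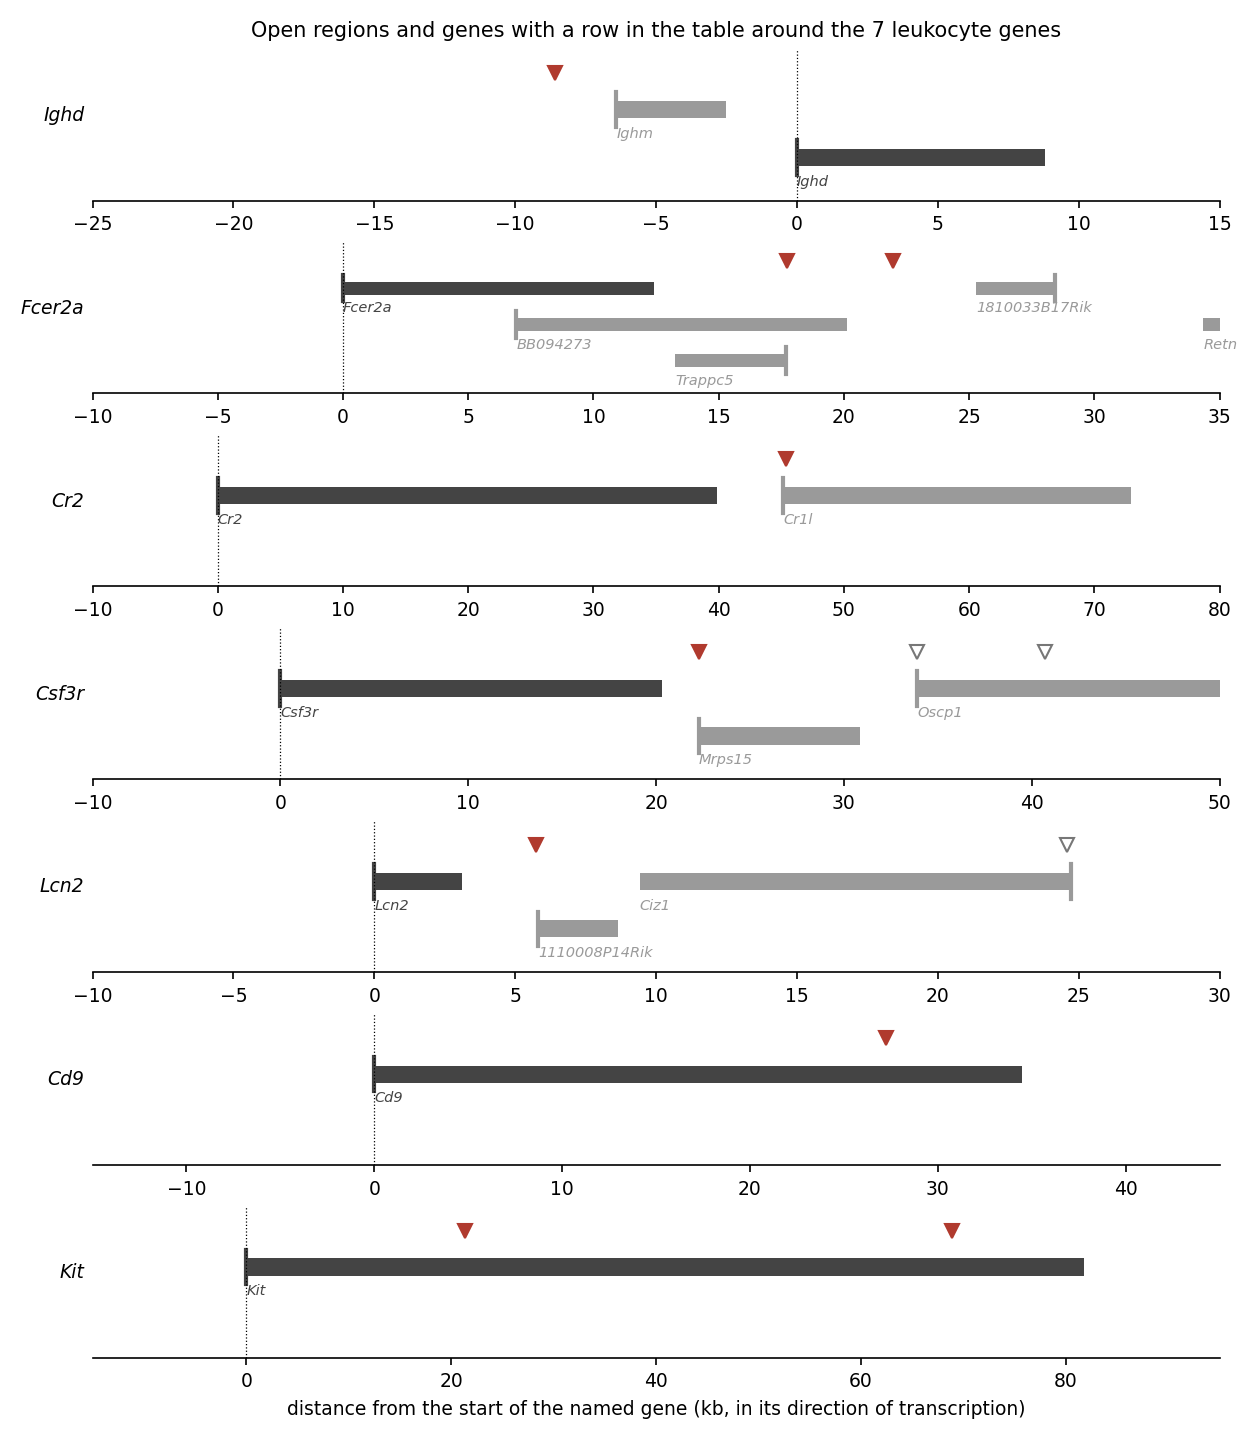
Position of the merged open regions (red triangles, linked to the named gene; open triangles, not linked to it) along the distance from the start of each of the 7 genes, in kb in its direction of transcription. Bars are genes with a row in the table and ticks on them are their starts; the Igh complex and the J and D segments are not drawn. The triangles of Fcer2a (1 of 2), Cr2, Csf3r and Lcn2 stand at the start of a neighbouring gene, and those of Cd9 and Kit within the gene.

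The sequences at these starts are shown because the open region listed for the leukocyte gene lies in the promoter window of its neighbour. Each window runs from 250 bases before to 50 after the start, is 300 bases long, comes from RefSeq (GRCm38.p6) and is read 5′ to 3′ on the gene's strand; capitals mark bases inside the merged open region. The windows are chr8:3676227-3676526 (+ strand) for Trappc5, chr1:195131521-195131820 (- strand) for Cr1l, chr4:126046678-126046977 (+ strand) for Mrps15 and chr2:32381866-32382165 (- strand) for 1110008P14Rik.
Trappc5: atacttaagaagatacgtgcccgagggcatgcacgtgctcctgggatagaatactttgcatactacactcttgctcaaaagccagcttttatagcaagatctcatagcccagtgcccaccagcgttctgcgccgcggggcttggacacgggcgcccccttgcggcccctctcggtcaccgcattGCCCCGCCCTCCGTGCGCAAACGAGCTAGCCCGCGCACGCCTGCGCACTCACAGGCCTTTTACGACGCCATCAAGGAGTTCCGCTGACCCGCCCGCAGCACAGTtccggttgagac
Cr1l: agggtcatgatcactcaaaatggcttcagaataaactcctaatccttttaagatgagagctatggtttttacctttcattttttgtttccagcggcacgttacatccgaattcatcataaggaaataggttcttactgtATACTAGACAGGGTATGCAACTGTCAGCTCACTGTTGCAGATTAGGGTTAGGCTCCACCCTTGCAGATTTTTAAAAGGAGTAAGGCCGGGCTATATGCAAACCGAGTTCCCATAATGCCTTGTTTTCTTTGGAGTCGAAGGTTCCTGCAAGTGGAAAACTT
Mrps15: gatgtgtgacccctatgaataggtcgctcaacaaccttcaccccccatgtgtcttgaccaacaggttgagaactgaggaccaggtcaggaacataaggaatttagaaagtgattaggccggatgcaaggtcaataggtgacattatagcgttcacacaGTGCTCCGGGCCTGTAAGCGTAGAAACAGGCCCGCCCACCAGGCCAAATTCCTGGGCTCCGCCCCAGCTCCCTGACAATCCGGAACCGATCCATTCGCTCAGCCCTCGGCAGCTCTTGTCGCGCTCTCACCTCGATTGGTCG
1110008P14Rik: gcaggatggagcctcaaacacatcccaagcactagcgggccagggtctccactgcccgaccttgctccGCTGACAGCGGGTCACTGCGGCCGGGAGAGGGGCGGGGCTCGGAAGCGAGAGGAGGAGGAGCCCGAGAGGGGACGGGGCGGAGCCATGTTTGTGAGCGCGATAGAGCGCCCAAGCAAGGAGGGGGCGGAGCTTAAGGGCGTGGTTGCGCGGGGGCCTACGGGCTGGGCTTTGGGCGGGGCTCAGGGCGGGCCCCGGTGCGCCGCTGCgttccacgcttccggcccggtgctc
The open region covered 104 bases of the Trappc5 window, 161 of the Cr1l window, 142 of the Mrps15 window and 207 of the 1110008P14Rik window. The region at Cr1l merges peaks at different places, and the peak of female 1, ending at 195131148, lay outside the Cr1l window. CpG dinucleotides numbered 26 in the Trappc5 window, 6 in the Cr1l window, 15 in the Mrps15 window and 29 in the 1110008P14Rik window, against a median of 7 over 32851 windows of the same length.

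The own windows of the neutrophil genes are shown for contrast, since no base of them fell in an open region. They lie at chr4:126024409-126024708 (+ strand) for Csf3r and chr2:32387690-32387989 (- strand) for Lcn2, and are all in lower case.
Csf3r: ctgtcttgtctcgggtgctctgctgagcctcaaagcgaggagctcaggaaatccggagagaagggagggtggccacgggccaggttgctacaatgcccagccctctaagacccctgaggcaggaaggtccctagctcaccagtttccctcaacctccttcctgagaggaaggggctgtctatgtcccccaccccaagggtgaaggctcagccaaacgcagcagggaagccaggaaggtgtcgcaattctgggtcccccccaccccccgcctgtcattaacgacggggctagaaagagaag
Lcn2: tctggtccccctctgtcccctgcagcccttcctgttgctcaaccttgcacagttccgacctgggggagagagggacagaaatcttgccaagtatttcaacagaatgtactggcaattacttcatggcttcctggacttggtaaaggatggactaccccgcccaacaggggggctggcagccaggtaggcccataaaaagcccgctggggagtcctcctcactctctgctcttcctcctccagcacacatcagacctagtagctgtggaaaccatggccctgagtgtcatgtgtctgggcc
The own windows of Cd9, Fcer2a, Cr2 and Kit likewise held 0 bases of an open region, and Ighd was not matched to a window. CpG numbered 9 at Csf3r, 3 at Lcn2, 3 at Fcer2a, 14 at Cr2, 18 at Cd9 and 20 at Kit. The letters GGGCGG, searched on both strands, occurred in the neighbours' windows of Trappc5, Mrps15 and 1110008P14Rik and in the own windows of Cd9, Cr2, Kit and Lcn2, and in 35.7% of all windows. The letters CCGGAA, likewise on both strands, occurred in the windows of Trappc5, Mrps15 and 1110008P14Rik and in that of Cd9, and in 14.9% of all windows. Each motif was counted separately, so matches of both may overlap, and a match describes the letters only.

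The libraries differed as a whole. The authors called 5484 peaks in male 1 and 4049 in male 2, against 10238 in female 1 and 8022 in female 2. Mean peak height over all genes, a scaled coverage of tags, was 25.3 and 16.8 in the male libraries and 40.9 and 32.5 in the female libraries. Male 2 stood apart, with a median peak length of 284 bp against 160 to 171 bp in the other 3. Over all genes the median difference, male minus female on the log2(height + 9) scale, was -0.63, so each difference below is also given relative to that median. Of the adipocyte markers 11 of 15 had a row, Pparg among them, and Adipoq, Plin1, Fabp4 and Lep had none in the table used here. The number of reads is not in the files used here, so no counting error is given.

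The B-cell genes come first. Ighd encodes the constant part of the IgD heavy chain that mature B cells carry beside IgM. Its region of 309 bp, chr12:113424754-113425062, lay 8430 bp upstream of Ighd, in the stretch between the joining segment Ighj4 and the mu constant gene Ighm, and 2182 bp before the start of Ighm. As background, that stretch holds the intronic enhancer and the mu switch region of the heavy chain locus; whether the open region coincides with either was not tested. The same region, and so the same height, is listed for Igh, Ighm, Ighj1, Ighj2, Ighj3, Ighj4 and Ighd4-1. Height was 26.9 in male 1 and 6.61 in male 2, against 26.0 in female 1 and 24.7 in female 2. Male 1 was the highest of the 4 and male 2 by far the lowest, so the sexes overlapped. Peaks were called in male 1 and female 1, overlapping by 159 bp with summits 112 bp apart. The means were 16.7 ± 14.3 in males and 25.3 ± 0.947 in females (SD, n = 2 each).

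Fcer2a encodes CD23, the low-affinity IgE receptor of B cells. It was linked to 2 regions downstream of the gene, and its deposited height is their mean. The first, 203 bp at chr8:3672098-3672300, lay 9437 bp past the gene and had a peak in male 2 only, with a summit of 10.3. The second, 104 bp at chr8:3676411-3676514, lay 5223 bp past the gene, with its summit 3 bp from the start of Trappc5, a gene for a subunit of the TRAPP vesicle tethering complex. It had a peak in female 1 only, with a summit of 53.0, higher than 76.1% of that library's summits. Where only 1 of both regions had a peak, the other's height follows from the mean if the height equals the summit, which held for 94.5% to 98.7% of comparable genes: 9.55 at the Trappc5 start in male 2 and 18 at the far region in female 1. The Trappc5 start was thus the higher region in female 1, and in male 2 the regions were of like height. For male 1 and female 2 the mean could not be split.

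The deposited height of Fcer2a was 16.3 in male 1 and 9.91 in male 2, against 35.5 in female 1 and 25.9 in female 2. Both males lay below both females. Trappc5, 1810033B17Rik and BB094273 are listed with the same 2 regions and the same heights. The means were 13.1 ± 4.49 in males and 30.7 ± 6.79 in females (SD, n = 2 each).

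Cr2 encodes complement receptor 2 (CD21) of B cells and follicular dendritic cells, which binds fragments of C3. Its region, 691 bp at chr1:195130991-195131681, lay 5130 bp past the end of Cr2, at the start of the neighbouring complement regulator gene Cr1l. That start was 78 bp from the summit of female 2, while the summits of male 2 and female 1 lay further inside Cr1l. Both genes carry the same height: 18.4 in male 1 and 16.2 in male 2, against 28.0 in female 1 and 27.9 in female 2. The sexes did not overlap, and the values within each sex were close. The means were 17.3 ± 1.57 in males and 28.0 ± 0.0361 in females (SD, n = 2 each). Peaks were called in male 2, female 1 and female 2, but not at the same place. The peaks of female 1 (158 bp) and female 2 (120 bp) stood at opposite ends of the region with a gap of 413 bp and summits 576 bp apart, and the peak of male 2, 500 bp long, overlapped them by 56 and 31 bp. The almost equal female heights were therefore read at different places of the region.

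**Figure D2:**
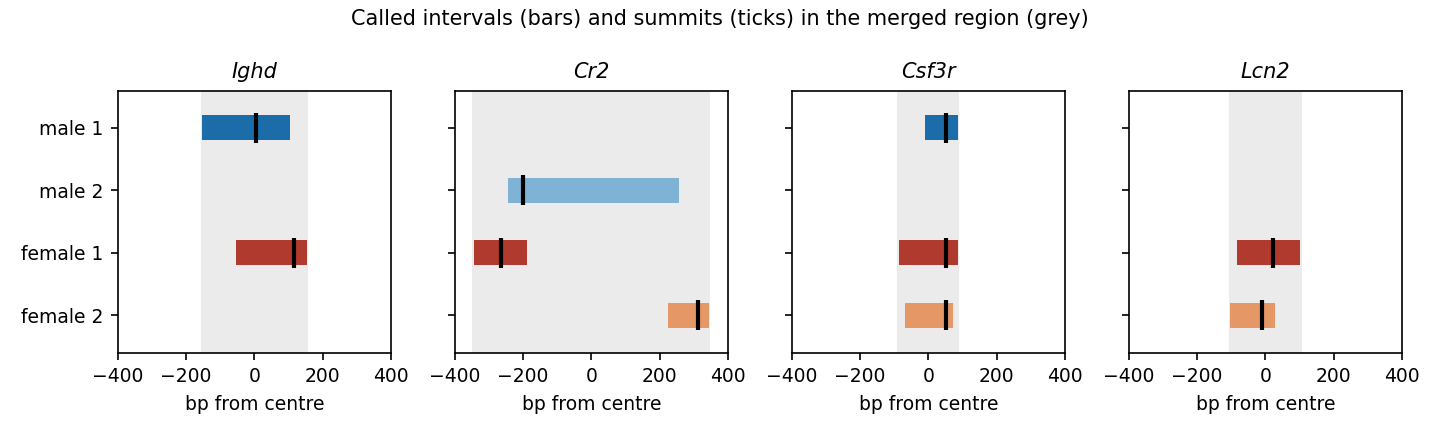
Called intervals (bars) and summits (ticks) of the 4 libraries, in bp from the centre of the merged region (grey), for the 4 genes with 1 region and peaks in at least 2 libraries; an empty line means that no peak was called. The 3 summits of Csf3r coincide, those of Lcn2 lie 32 bp apart, and the female peaks of Cr2 do not overlap.

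Of the neutrophil genes, Csf3r encodes the receptor of G-CSF, the growth factor of neutrophils. Its region, 175 bp at chr4:126046836-126047010, lay 1861 bp past the end of Csf3r and 22317 bp from its start by the summit. The summit was 48 bp from the start of Mrps15, a gene for a protein of the mitochondrial ribosome. Height was 31.1 in male 1 and 16.2 in male 2, against 39.0 in female 1 and 31.2 in female 2. Male 1 and female 2 were almost equal, and male 2 was the low library. Peaks were called in male 1, female 1 and female 2 with summits at the same base, and none in male 2, although 26.1% of the summits called in that library were lower. The means were 23.6 ± 10.6 in males and 35.1 ± 5.49 in females (SD, n = 2 each). Mrps15 is linked to 3 regions, so its listed mean differs: 21.0 and 8.08 in males, against 28.7 and 21.4 in females.

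Lcn2 encodes lipocalin 2, a protein of neutrophil granules that binds bacterial siderophores and that adipocytes also make. Its region, 207 bp at chr2:32381891-32382097, lay 2540 bp past the gene, with a summit 69 bp from the start of 1110008P14Rik. Height was 33.2 in male 1 and 14.7 in male 2, against 56.0 in female 1 and 46.9 in female 2. Both males lay below both females. Peaks were called in both females and in neither male, a pattern of 11.7% of all genes that Kit shared. In male 1, however, 58.4% of the called summits were lower than the height at Lcn2, so a missing peak call there does not mark a low height. The means were 24.0 ± 13.1 in males and 51.4 ± 6.47 in females (SD, n = 2 each). The region is also linked to Ciz1, the gene of a zinc finger protein, which is linked to a further region and has a listed mean of 32.5 and 20.2 in males, against 53.0 and 37.8 in females.

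Cd9 encodes a tetraspanin, a membrane protein of many cell types, among them macrophages and other leukocytes, so it marks no single type. Its region, 148 bp at chr6:125467456-125467603, lay inside the gene, 27171 bp from the start, and no other gene was linked to it. Height was 7.07 in male 1 and 2.20 in male 2, against 22.0 in female 1 and 18.1 in female 2. The sexes did not overlap, and the lower female value was more than double the higher male value. A peak was called in female 1 only. The means were 4.64 ± 3.44 in males and 20.0 ± 2.77 in females (SD, n = 2 each).

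Kit encodes the receptor of stem cell factor, carried by mast cells, melanocytes and blood progenitors. It was linked to 2 regions inside the gene and to no shared one: 87 bp at chr5:75596269-75596355, 21349 bp from the start, and 133 bp at chr5:75643783-75643915, 68917 bp from the start. Height, the mean of both, was 5.30 in male 1 and 3.67 in male 2, against 15 in female 1 and 8.22 in female 2. All 4 values were among the lowest of their libraries, with 1.61% and 1.88% of genes lower in the males and 3.22% and 0.942% in the females. The first region had a peak in female 1 only (summit 26.0) and the second in female 2 only (summit 6.58), which only 4 of that library's 8022 summits were below. No peak of Kit was therefore called at the same place in both females. By the remainder of the mean, the first region stood at 9.86 in female 2 and the second at 4.0 in female 1. The means were 4.49 ± 1.15 in males and 11.6 ± 4.79 in females (SD, n = 2 each).

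**Figure D3:**
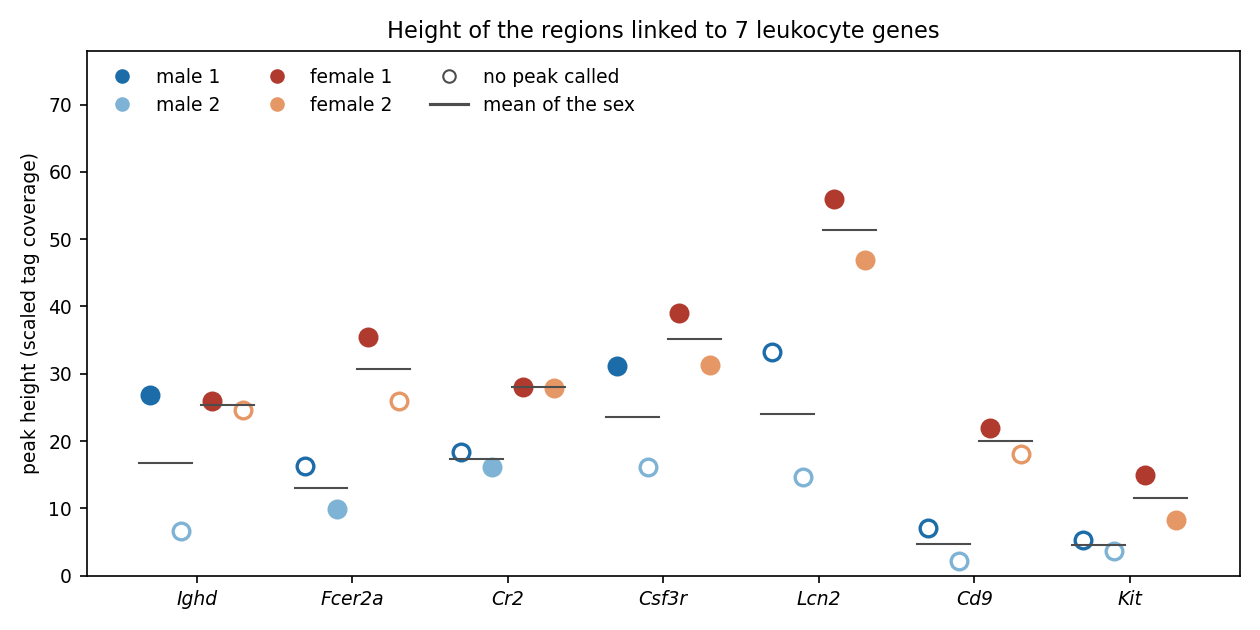
Deposited peak height (scaled tag coverage) of the 7 genes in the 4 libraries, males left of females; filled points had a called peak linked to the gene, open points had none, and lines are the means of 2 libraries. Both males lie below both females for each gene other than Ighd, where male 1 is the highest at 26.9.

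Of the 36 pairs of a region and a library, 15 had a peak (41.7%, against 54.5% over all merged regions), and 5 of the 9 regions had a peak in 1 library (55.6%, against 40.7% of all merged regions). By gene, Cd9 had a peak in 1 library, as did 19.8% of all genes. None of the 7 genes had peaks in all 4 libraries, against 35.9% of all genes. Both males lay below both females for 6 of the 7 genes, and the same held for 76.4% of all genes, so the count is near the background.

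Relative to its own library, each gene kept a different place. At Csf3r 73.2% and 55.7% of genes were lower in the males, against 51.1% and 52.8% in the females, so it stood in the upper part of all 4 libraries. At Lcn2 the shares were 78.02% and 47.9% in the males, against 81.2% and 84.3% in the females. At Cd9 they were 2.38% and 0.709% in the males, against 11.5% and 13.7% in the females, low in all 4. Ighd varied most between libraries of a sex, with 59.3% and 7.99% in the males, against 19.0% and 32.0% in the females. Fcer2a stood at 19.8% and 23.3% in the males, against 42.9% and 36.7% in the females. Cr2 stood at 26.8% and 55.7% in the males, against 23.4% and 42.5% in the females, and there the sexes overlapped although the heights did not.

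**Figure D4:**
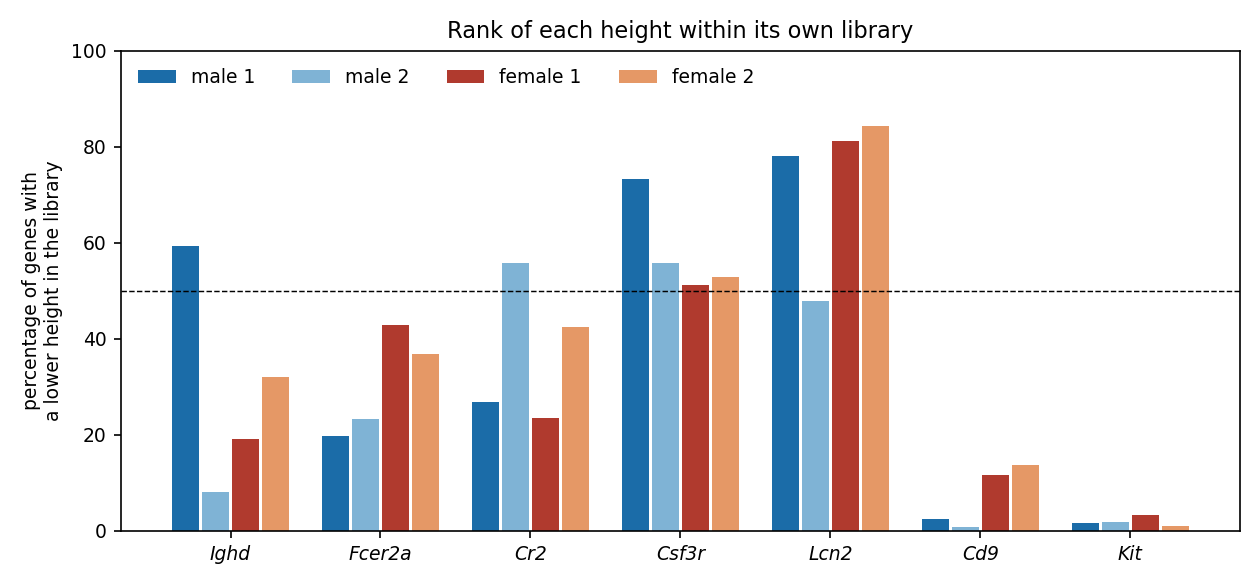
Percentage of all genes with a lower height in the same library, for the 7 genes in 2 male and 2 female libraries; the dashed line marks 50%. Kit and Cd9 stand low in all 4 libraries, and Csf3r stands above the line in all 4.

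The sexes were compared in one limma fit over all 11993 genes, with Benjamini-Hochberg adjustment over all of them. Each SE and p below comes from a spread pooled over genes of like height, rather than from the gene's own spread. None of the 7 genes passed an adjusted p of 0.05, against 0.592% of all genes called lower in males (71 genes) and 0 called higher; at an unadjusted p under 0.05 there were 3768 lower and 1 higher, and 3 of the 7 were among the lower ones. Cd9 had the largest difference, -1.11 ± 0.342 (log2, SE; adjusted p = 0.0804 in limma), and 3.53% of all genes had a lower one. Lcn2 differed by -0.93 ± 0.403 and Fcer2a by -0.85 ± 0.369, both with a limma adjusted p of 0.133. These 3 lay below the median of all genes, by -0.48 for Cd9, -0.30 for Lcn2 and -0.22 for Fcer2a.

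The other 4 genes lay above that median on this scale. Kit differed by -0.59 ± 0.333 (limma adjusted p = 0.181), which is 0.03 relative to the median. Ighd differed by -0.54 ± 0.367 (limma adjusted p = 0.239; 0.09 relative to the median). Cr2 differed by -0.49 ± 0.375 (limma adjusted p = 0.279; 0.13 relative) and Csf3r by -0.47 ± 0.392 (limma adjusted p = 0.319; 0.16 relative). For Kit and Ighd that place depended on the pseudocount: with 1 in place of 9, Kit lay below the all-gene median by -0.33 and Ighd by -0.02. It also depended on the libraries used. Ighd lay below without male 1 (-0.27) and without female 1 (-0.02). Kit lay below without male 2 (-0.11), without female 2 (-0.07) and with quantile normalization (-0.007). Cr2 lay below without male 2 (-0.04) and, barely, without female 1 (-6.8e-05). Divided by its library's median, Kit stood at 0.221 and 0.25 in males, against 0.395 and 0.272 in females, so its males were lower by that ratio. By rank within the library, female 2 was the lowest, with 0.942% of genes below Kit. Csf3r stood at 1.29 and 1.10 in males by the ratio, against 1.03 and 1.03 in females, so its males were higher. Males were lower by the ratio for Cd9, Fcer2a and Lcn2, and the sexes overlapped for Ighd and Cr2. Cd9, Lcn2 and Fcer2a lay below the median of all genes, and Csf3r above it, under each alternative that gave them a value. Of these alternatives, centring, no trend and a replicate block leave the relative values unchanged by construction. Over the 7 genes the median difference was -0.59, or 0.03 relative to all genes, and -1.16, or -0.33 relative, with a pseudocount of 1. It was also below the median of all genes with each library left out in turn. The relative values were -0.19 without male 1, -0.11 without male 2, -0.02 without female 1 and -0.07 without female 2. With quantile normalization the value was -0.007. It was above with a pseudocount of 36 (0.08), with low genes left out (0.12, 5 genes) and with 1 row per set of regions (0.04). Centring, no trend and a replicate block each gave 0.03 by construction. The side of the group was thus not steady over the alternatives that could move it.

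The differences depended on which male library was used. Without male 1 the median difference of all genes was -0.86, with the lone male 2 assumed to vary like the females. Cd9 (-1.37), Lcn2 (-1.35), Ighd (-1.14) and Fcer2a (-1.06) then lay below that median. Csf3r (-0.80), Kit (-0.68) and Cr2 (-0.56) lay above it. Without male 2 that median was -0.40. Cd9 (-0.85), Fcer2a (-0.64), Lcn2 (-0.51), Kit (-0.51) and Cr2 (-0.43) lay below it. Csf3r (-0.13) lay above it, and Ighd turned to 0.06. With all 4 libraries and a replicate block, the limma adjusted p was 0.00122 for Cd9, 0.00369 for Lcn2 and 0.00515 for Fcer2a. In that fit 6918 of all genes were called lower. Ighd (0.058), Kit (0.0693), Cr2 (0.0775) and Csf3r (0.0973) did not pass there. With quantile normalization the limma adjusted p ran from 0.638 for Cd9 to 0.99 for Kit.

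**Figure D5:**
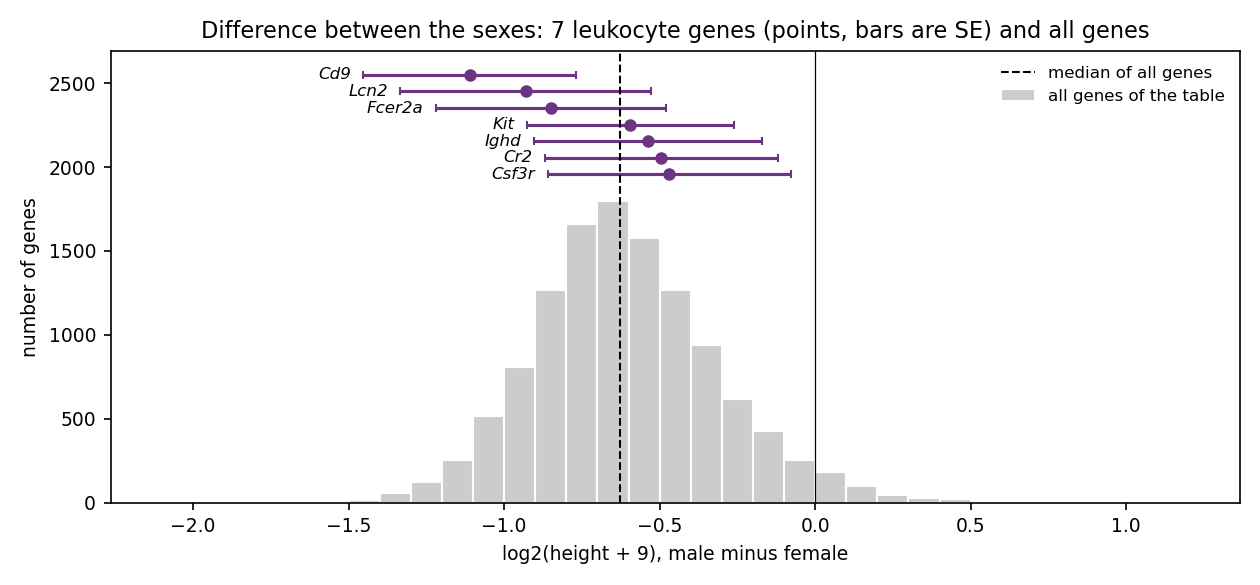
Difference of log2(height + 9), male minus female, of the 7 genes (points) above the histogram of all 11993 genes (bins of the same scale). Bars are SE, from a spread pooled over genes of like height. The dashed line is the median of all genes at -0.63; Cd9, Lcn2 and Fcer2a lie left of it, Kit, Ighd, Cr2 and Csf3r right of it.

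Most genes of the leukocyte lists had no linked peak. The share over all annotated genes was not computed. Each gene with a row had a linked peak in some library, so measured here means that a peak was linked. A gene without a row had no peak linked to it there, which is not the same as missing data. Of the 104 genes of 6 leukocyte lists, 30 had a row, these 7 included; 0 of the 30 were called in either direction, their median difference was -0.56 (0.07 relative to all genes), and 6 had peaks in all 4 libraries. A summit within 1000 bp of the own start was found for 7 of the 30 (23.3%), among them Mertk, Cd14, Ebf1 and Gata2. The same held for 7 of 11 adipocyte, 1 of 7 endothelial and 1 of 6 fibroblast and progenitor genes with a row. It also held for 2 of 6 mammary epithelial and 1 of 3 melanocyte genes with a row, so a low share is not particular to leukocyte genes. Defining markers had no row in the table used here: Ptprc of all leukocytes, Adgre1 of macrophages, Ms4a1 of B cells, Cd3e of T cells, S100a8 of neutrophils and Cpa3 of mast cells. The listed heights of several measured genes are shared as well: Cd79a has its region in common with Arhgef1, Lck with Hdac1, Cd68 its 3 regions with Mpdu1, Elane with Cfd and Cfb with Nelfe, and the nearest summit lay 6745 bp from the start of Cd79a, 30825 bp from that of Lck and 12178 bp from that of Cfb.

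By list, 6 of 12 pan-leukocyte genes were measured (median -0.40), with Runx1, a transcription factor of blood cells, highest. Of the macrophage and dendritic cell list 6 of 26 were measured (median -0.68). Cd68, a lysosomal protein of macrophages, led these with 30.4 and 18.8 in males, against 54.0 and 50.1 in females. Of the B-cell and lymph node list 6 of 20 were measured (median -0.54), 3 of them Ighd, Fcer2a and Cr2. Cd79a, the signalling chain of the B-cell receptor, was highest with 43.8 and 24.97 in males, against 67.0 and 60.8 in females. The T-cell list had 6 of 20 (median -0.77), with Lck, the kinase of T-cell receptor signalling, highest. The neutrophil list had 4 of 15 (median -0.70), Lcn2 and Csf3r at its top before the granule genes Elane and Camp. The mast cell and basophil list had 2 of 11 (median -0.46), Kit and the transcription factor gene Gata2.

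Kit and Csf3r act through kinases, STAT proteins and adaptors that most cells share, and 21 of 24 genes of that pathway were measured, 16 of them with a summit within 1000 bp of the own start and 0 called; their median difference was -0.60. Stat3, the transcription factor that G-CSF receptors activate, was highest, with 42.4 and 28.6 in males, against 83.0 and 61.7 in females. The ligand of Kit, Kitl, stood at 9.90 and 5.51 in males, against 25.5 and 17.7 in females. Cd9 was the lowest by mean height of 18 measured tetraspanins and partners (of 25; 15 near the own start, 0 called, median -0.73), where Tspan14 was highest. Of complement genes 8 of 23 were measured (4 near the own start, 0 called, median -0.73), with Cfb, factor B of the alternative pathway, above Cr2 and Cr1l.

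Other cell types of the pad gave the following counts. Rows were found for 11 of 15 adipocyte, 7 of 14 endothelial and 6 of 14 fibroblast and progenitor genes. For mammary epithelium 6 of 18 genes had a row, and for melanocytes 3 of 8. Adipocyte genes had a median difference of -0.67 (0 of 11 called), endothelial genes of -0.56 (0 of 7), fibroblast and progenitor genes of -0.84 (0 of 6) and melanocyte genes, Kit among them, of -0.81 (0 of 3). Of 6 measured genes of mammary epithelium, 2 were called lower in males (0.592% of all genes), St14 and Spint2, and the median was -0.97. Neither call held with libraries centred, with quantile normalization or without male 2, where 0 genes were called lower, and both genes fall under the filter on low heights. St14, a membrane serine protease gene, stood at 2.12 and 1.47 in males, against 22.0 and 15.6 in females (limma adjusted p = 0.0283). The summed height of the 6 genes was 94.4 and 44.8 in males, against 184.0 and 146.3 in females. Krt8, Krt18, Epcam and Cdh1 of that list had no row in the table used here. Both males lay below both females for Cd9 and Kit too, as for 76.4% of all genes. The part of mammary epithelium in the heights of Cd9 and Kit was not tested.

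The genes most like each of the 7 in height over the 4 libraries, by Euclidean distance of log2(height + 9), were these. For Cd9 they were Fa2h (0.161) and Hs3st3a1 (0.171), and for Kit Tmem144 (0.147) and Vti1a (0.20). For Fcer2a they were Tmem132a (0.0592) and Dusp19 (0.0785), and for Lcn2 Slc4a2 (0.0551) and Zfp53 (0.0805). Csf3r was closest to Gnpat (0.047) and Fam207a (0.0491), Ighd to Xpo6 (0.115) and Micu3 (0.117), and Cr2 to Galntl5 (0.098) and H2-DMb2 (0.116). Within a distance of 0.25 lay 320 genes for Csf3r, against 7 for Kit and 9 for Cd9. The distance includes the height itself, and few genes are as low as Kit and Cd9. These counts therefore do not tell how rare a pattern over the libraries is. Genes with the same regions were counted separately here.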

How the data were processed

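Per the labels' protocols, nuclei of the frozen fat were tagged with Tn5 and the DNA was amplified in 10 PCR cycles. The submitters' processing notes name BWA, MACS2 2.1.0 and mm10. No source used here gives read filters or a Tn5 shift. Each library has its own peaks, and a track merges them, per the file headers. The authors deposited a signal, tag coverage at the highest point, scaled per library and averaged over a gene's regions; with 1 region, values were whole multiples of a step (0.707 and 0.734 in the males, 1.0 and 0.822 in the females; 100.0% within 0.02 steps). No source used here gives the origin of that scaling. These are not counts, and no count test was used. The summits lay on a grid of 16 bp in 99.7% of cases, which limits summit distances.

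The sexes were set against each other on log2(height + 9) by limma's trended fit (limma 3.58.1, R 4.3.3). The pseudocount 9 rounds up the 5th percentile of nonzero heights; differences understate the change of low genes. All 11993 genes had a height above 0 in at least 2 libraries. The threshold was a Benjamini-Hochberg adjusted p under 0.05. The script was tested on simulated data. Python 3.11.15, pandas 2.3.3, numpy 2.4.6 and matplotlib 3.10.9 were used. Promoter windows came from RefSeq, GRCm38.p6.

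The 7 genes and the 14 gene lists were chosen with earlier results of these data known. Named are the 7 genes, genes sharing their regions, up to 4 genes of each list with the highest mean height or past the threshold, and the 2 nearest genes by height; Kitl, Pparg, the genes near their own start and those sharing a region with a list gene were named outside this rule, after their values were seen. Exon and intron positions were not used here. An exact test of 2 against 2 cannot go below p = 0.333, so none was run.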

Additional observations from a re-analysis of the deposited data

How the results depend on the processing

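For the 7 genes, 66 of 82 values under 12 alternatives kept direction and side of the threshold; 8 passed it and 8 turned sign. With libraries centred on their median, Ighd turned to 0.081, Cr2 to 0.12, Csf3r to 0.15 and Kit to 0.023; with quantile normalization Ighd turned to 0.035, Cr2 to 0.11 and Csf3r to 0.16; with 1 library left out Ighd ranged from -1.14 (without male 1) to 0.063 (without male 2). Kit stood at -0.019 with quantile normalization. With a pseudocount of 1 Cd9 stood at -2.04 and with 36 at -0.47. Both scalings remove the shift between libraries by construction. No direction could turn without trend, with a replicate block, with 1 row per set of regions or with low genes left out. Those alternatives leave the differences unchanged and can move only the adjusted p. Cd9 and Kit have no value where genes of low mean height (at most 20.2) are left out. Genes called lower in males, 71 as reported, numbered 0 with low genes left out, 0 when centred, 0 with quantile normalization and 416 without trend; the cause was not tested. With a replicate block 6918 of all 11993 genes were called lower and 7 higher. Of the 7 leukocyte genes, 3 were called lower (Cd9, Fcer2a and Lcn2), so those calls stand against a large share of all genes. Gene by gene, same-numbered samples did not deviate together (correlation 0.0166). That correlation is blind to a shift of a whole library, and mean height was higher in male 1 than male 2 and in female 1 than female 2. Whether the numbers pair the samples is therefore not settled, and the labels do not say. Leaving out 1 library in turn gave 0 to 6391 genes lower (6391 without male 1, 0 without male 2, 19 without female 1, 64 without female 2), 0 to 28 higher, and 0 to 5 of the 7 genes called. Peak presence was 15 of 36 by any overlap, 13 when an interval had to cover 50% of the region and 15 by summit. In an alternative added after seeing the data, both males lay below both females for 6 to 7 of the 7 genes when 1 library was left out, against 78.4% to 92.8% of all genes. Depth in reads is unknown, and the height of male 2 is read in few steps for low genes (3 at Cd9).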
